A study of Mus musculus with 6 samples.

Results

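Voltage-gated sodium and calcium channels are built from a large pore-forming subunit and smaller auxiliary subunits that set how much of the pore reaches the membrane and how it gates. The genes described here were chosen by symbol from the longer of the deposited gene tables: those starting with Scn, a number and a or b, and those starting with Cacna, Cacnb or Cacng. The 31 described here, of 13192 genes in all, are 13 for pore subunits (4 sodium, 9 calcium) and 18 for auxiliary subunits (3 sodium channel beta, 4 alpha2delta, 4 calcium channel beta and 7 gamma). The Cacna2d genes start like the calcium pore genes but encode alpha2delta proteins and were counted as auxiliary. The table holds only genes whose Cuffdiff test status was OK, so each of the 31 had passed the authors' own filter.

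The study compared RNA from anti-HA ribosome pull-downs of mouse cortex at postnatal day 25 between Control mice and mice with a conditional knockout of Rheb (Rheb cKO). Rheb is a GTPase that activates the growth-controlling kinase complex mTORC1. All 6 libraries came from mice titled with floxp/floxp Rheb alleles and 1 copy (k/+) of the Ribo-HA knock-in. The titles of the 3 Rheb cKO libraries add Syn-Cre, by its name a recombinase driven by the promoter of the neuronal gene synapsin, and those of the 3 Control libraries name no Cre; whether the Control ribosomes were tagged without one is not stated. An anti-HA antibody on beads pulled the ribosomes and their RNA out of lysed cortex, and the cell type label reads neuron. Whether the libraries of a group are from separate animals is not stated in the labels. The authors pooled the libraries of a group into 1 FPKM value per gene, a level scaled to gene length and library size, so no spread between libraries can be given and the depth of each is unknown.

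Rheb itself went from 22.7 FPKM in Control to 9.20 in Rheb cKO, 40.6% of the Control level (q = 0.00161 in the authors' deposited table, Cuffdiff). Neuronal markers fixed as a list (10 measured of 10, among them Rbfox3, Snap25 and Syt1) were all present. Their summed level was 3505 FPKM in Control and 3686 in Rheb cKO, with a median log2 fold change of 0.16. By Cuffdiff 0 of 10 were called, while 4 had an unadjusted p under 0.05, all 4 with a fold above 0. Markers of mature oligodendrocytes were present as well, at a summed 4332 FPKM in Control and 1468 in Rheb cKO, and 17 of 17 fell. In such pull-downs from whole cortex fewer cells of a type, less RNA per cell and a change in what the antibody captured cannot be told apart. Only the Rheb cKO titles name Syn-Cre, so any difference in tagging or background between the groups cannot be separated from the folds given here. Astrocyte markers summed to 2456 and 1911 FPKM with 5 of 12 lower and 2 higher. Microglia markers summed to 32.1 and 40.1 FPKM, with 0 of 10 called by Cuffdiff and 3 at an unadjusted p under 0.05, all 3 above 0. Endothelial and mural markers (9 measured of 16) summed to 91.1 and 52.3 FPKM, with 5 of 9 lower. Those lower were Kcnj8, Vtn, Acta2, Myl9 and Rgs5, while Cldn5, Ly6c1, Pdgfrb and Tagln were not called. Vtn supplied most of the drop in the sum, from 51.5 FPKM in Control to 24.4 in Rheb cKO.

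Sodium channels open first when a neuron is depolarised and carry the upstroke of the action potential; in cortical neurons they are packed into the axon initial segment and the nodes of Ranvier. Calcium channels answer the same depolarisation by letting in calcium, which releases transmitter at terminals (P/Q and N type), signals to the nucleus (L type) or supports bursts near rest (T type). Beta and alpha2delta subunits help calcium pores to the membrane, and most genes named gamma encode TARPs, proteins better known for carrying AMPA-type glutamate receptors to synapses.

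Of the 31 genes 1 pore gene rose, 1 auxiliary gene fell and the other 29 were not called at a q under 0.05. The gene that rose was Scn2a1, a sodium pore, and the one that fell was Scn4b, a sodium channel beta subunit. The calls, 2 of 31, make 6.45%, beside 8.72% of all 13192 genes, with 4.14% of all genes called higher and 4.58% called lower. An unadjusted p under 0.05 was held by 6 of 31 (19.4%), beside 21.2% of all genes. The members at that level were Scn2a1, Cacna1c, Cacna1e and Scn3b above 0 (4 of 31, beside 11.5% of all genes) and Scn4b and Cacna2d3 below 0 (2 of 31, beside 9.72% of all genes).

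Pore genes mostly lay above 0, while auxiliary genes lay on both sides of it. Of the 13 pore genes 12 had a fold above 0 (92.3%), with a median log2 fold change of 0.38, and of the 18 auxiliary genes 10 did (55.6%), with a median of 0.01. Over all 13175 genes with a finite fold 54.6% were above 0 and the median was 0.03. The medians of pore and auxiliary genes thus stood 0.37 apart on the log2 scale. With 1 added to each FPKM, which damps genes of low level, the pore median was 0.25 and the gap 0.24. The pore median of 0.38 is the fold of the low-level gene Cacna1s, at 0.773 FPKM in Control and 1.01 in Rheb cKO. Among the 11 pore genes averaging 1 FPKM or more the median was 0.28. These counts describe the lists and carry no test, since genes of a pooled comparison are not replicates.

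**Figure D1:**
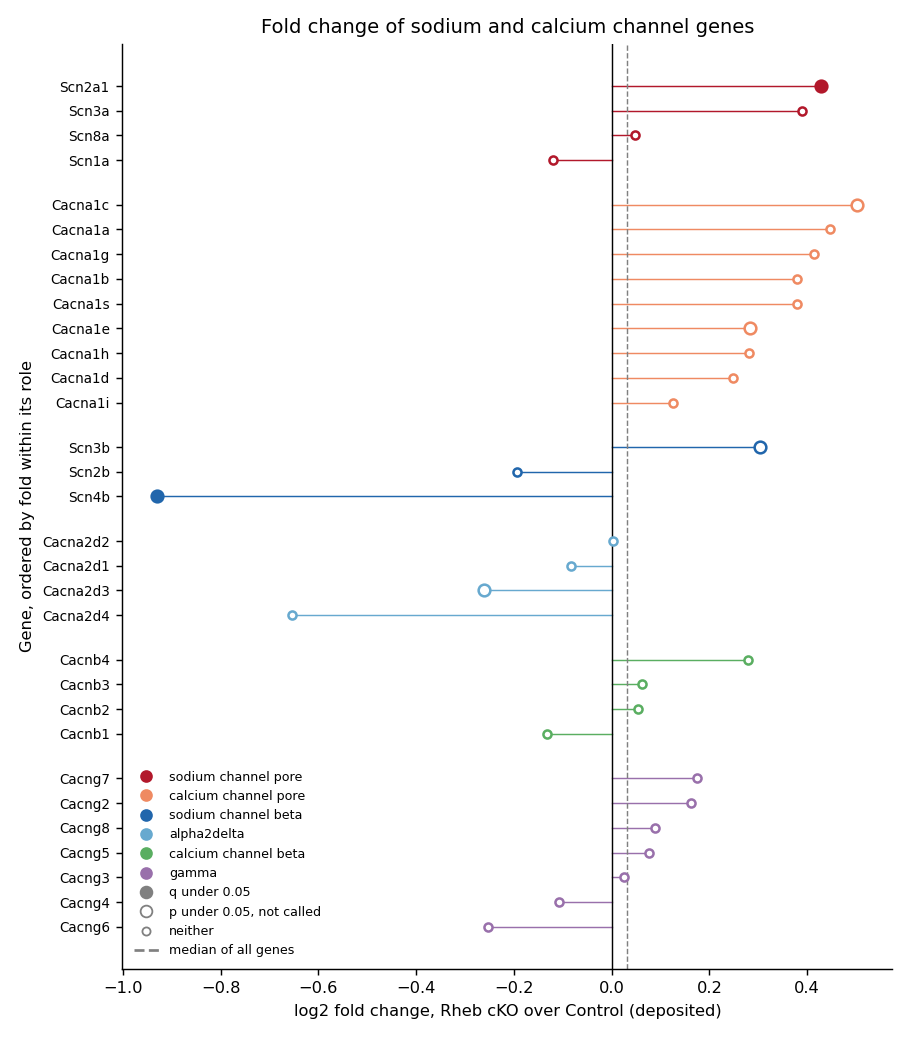
Deposited log2 fold change (x axis) of the 31 channel genes (y axis), coloured by role, with filled points for a q under 0.05, large open points for an unadjusted p under 0.05 and the dashed line at the median of all genes. Of the 13 pore genes drawn Scn1a alone lies below 0, while the 3 sodium channel beta genes run from -0.93 (Scn4b) to 0.30 (Scn3b).

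Among the 4 sodium channel pores described, Scn2a1 was the one that rose. It encodes the pore found early at the axon initial segment and along unmyelinated axons of excitatory neurons, and its current symbol is Scn2a. Its level was 9.79 FPKM in Control and 13.2 in Rheb cKO (log2 fold change 0.43, q = 0.0126 by Cuffdiff in the authors' deposited table). The gene lies on the plus strand of chromosome 2 from 65620771 to 65767447 (GRCm38, the same assembly as mm10), spans 147 kb and has 27 exons in its longest annotated transcript of 8.94 kb.

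RefSeq gives Scn2a 2 start sites in the same build, and the 250 bases before each are printed because this is the pore gene that was called and its start sites differ in base composition. Capitals mark a match to the letters of the TATA box (TATAAA on either strand) at any distance from the start, and no other of the motifs searched occurs in the 2 windows. Whether the match acts as a TATA box was not tested.
Scn2a, upstream start, chr2:65620519-65620768, plus strand: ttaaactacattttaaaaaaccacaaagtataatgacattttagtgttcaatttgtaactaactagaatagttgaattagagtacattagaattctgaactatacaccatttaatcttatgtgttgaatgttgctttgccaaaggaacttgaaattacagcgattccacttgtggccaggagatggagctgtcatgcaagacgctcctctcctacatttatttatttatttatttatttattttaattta
Scn2a, downstream start, chr2:65668436-65668685, plus strand: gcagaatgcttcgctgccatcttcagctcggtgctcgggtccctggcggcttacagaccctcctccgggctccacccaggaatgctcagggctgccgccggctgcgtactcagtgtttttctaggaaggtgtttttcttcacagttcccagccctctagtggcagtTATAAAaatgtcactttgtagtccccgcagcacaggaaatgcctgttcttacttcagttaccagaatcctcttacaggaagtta
The upstream window had 29.6% G and C with 2 CpG dinucleotides, and the downstream window 53.2% with 9, beside medians of 52.4% and 6 over all 32851 windows of that table. The motifs searched on both strands were the GC box GGGCGG, the TATA box TATAAA, the E-box CACGTG and the core TGACG of the cyclic AMP response element, none of which contains another. Of all windows 12.4% held TATAAA, and of 35 windows belonging to 24 of the 31 channel genes 2 did (5.71%). GGGCGG occurred in 13 of these 35 windows (37.1%, beside 32.7% of all), TGACG in 5 (14.3%, beside 17.8%) and CACGTG in 0 (beside 6.02%). The gene values are summed over start sites, so use of the Scn2a start sites could not be compared between the groups.

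Scn8a, the pore of mature initial segments and nodes, had the highest level of these 4, with 24.3 FPKM in Control and 25.1 in Rheb cKO (log2 fold change 0.05, q = 0.894 in the authors' deposited table). Scn1a, the main pore of fast-spiking interneurons, was the single one of the 13 pore genes below 0, at 4.74 and 4.36 FPKM (log2 fold change -0.12, q = 0.692 in the authors' deposited table). The order of levels was Scn8a, Scn2a1, Scn1a and Scn3a in both groups. Scn2a1 made up 24.7% of the summed FPKM of the 4 genes in Control and 30.1% in Rheb cKO, and Scn8a 61.3% and 57.4%. The ratio of Scn2a1 to Scn1a was 2.06 in Control and 3.02 in Rheb cKO.

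Scn3a, a pore of the embryonic brain, stood at 0.831 FPKM in Control and 1.09 in Rheb cKO (log2 fold change 0.39, q = 0.349 in the authors' deposited table). It is near the bottom of the table by level, at rank 12123 of 13192 genes by mean FPKM, and with 1 added to each FPKM its log2 fold was 0.19. Scn3a is the neighbour of Scn2a1, 53.1 kb away on the opposite strand.

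All 9 calcium pore genes had a fold above 0, from 0.13 for Cacna1i to 0.50 for Cacna1c, and none of the 9 passed the test (q from 0.105 to 0.791, Cuffdiff, 2 at an unadjusted p under 0.05). Their summed level was 90.4 FPKM in Control and 115.8 in Rheb cKO, a ratio of 1.28. The P/Q-type pore Cacna1a, the main channel of transmitter release, was the most abundant, with 28.5 FPKM in Control and 38.9 in Rheb cKO (log2 fold change 0.45, q = 0.698 in the authors' deposited table). Its fold was as high as that of Scn2a1, but the Cuffdiff statistic, which sets a fold against its estimated spread, was 0.45 for Cacna1a and 1.51 for Scn2a1 in the authors' deposited table. The N-type pore Cacna1b, also of terminals, went from 8.58 to 11.2 FPKM (0.38 on the log2 scale, q = 0.656 in the authors' deposited table). Cacna1e, the R-type pore, went from 10.8 to 13.1 FPKM (0.28, p = 0.0144, q = 0.110 by Cuffdiff in the authors' deposited table).

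The L-type pores, which couple depolarisation to gene expression, were lower in level. Cacna1c, the main L-type pore of brain and heart, went from 4.88 to 6.92 FPKM (0.50 on the log2 scale, p = 0.0135, q = 0.105 by Cuffdiff in the authors' deposited table). Cacna1d, the L-type pore that opens at lower voltages, went from 1.78 to 2.12 FPKM (0.25, q = 0.530 in the authors' deposited table). Cacna1s, the skeletal muscle pore, was at 0.773 and 1.01 FPKM (0.38, q = 0.791 in the authors' deposited table). Dcp1b, which overlaps Cacna1c on the other strand, had a log2 fold change of 0.50 as well (3.14 to 4.45 FPKM, q = 0.565 in the authors' deposited table). The library kit keeps strand, but the strand setting of the counting is not given in the sources used here, so reads of the pair cannot be assigned.

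The T-type pores open near rest and need no beta subunit. Cacna1g went from 14.0 to 18.6 FPKM (0.41 on the log2 scale, q = 0.610 in the authors' deposited table), and Cacna1h from 7.51 to 9.13 (0.28, q = 0.430). Cacna1i, at 13.7 and 14.9 FPKM, had the lowest fold of the calcium pores (0.13, q = 0.661 in the authors' deposited table). Medians were 0.38 for the L-type genes, 0.38 for the P/Q, N and R types together and 0.28 for the T-type genes, with 3 genes each. The L-type median is the fold of the low-level gene Cacna1s. With 1 added to each FPKM the medians were 0.18, 0.34 and 0.25 in the same order, so their ranking is not stable.

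**Figure D2:**
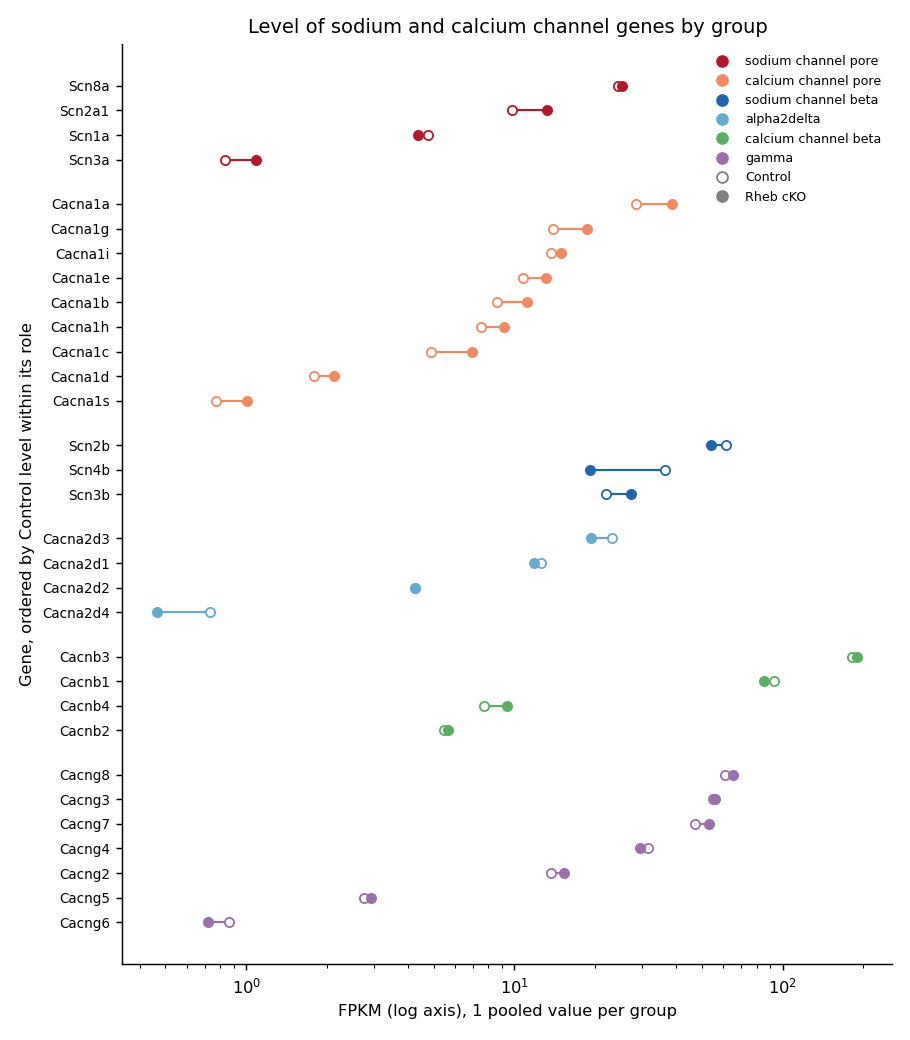
FPKM on a log axis (x axis) of each channel gene (y axis, by role), open points for Control and filled points for Rheb cKO, 1 pooled value each. Filled points lie to the right of open points for every calcium pore gene, and Cacnb3 has the highest level of the 31, at 182.2 FPKM in Control and 190.2 in Rheb cKO.

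The sodium channel beta subunits are single-pass membrane proteins with an immunoglobulin domain that modulate gating and also act in cell adhesion. Of the 3 described, Scn4b fell, Scn2b had a fold below 0 and Scn3b one above 0. Scn4b, whose cytoplasmic tail is linked to resurgent sodium current in fast-firing neurons, had 36.6 FPKM in Control and 19.2 in Rheb cKO, 52.5% of the Control level. Its log2 fold change of -0.93 had a q of 0.00161, the smallest the authors' deposited table holds (Cuffdiff), and a statistic of -4.25. Scn4b lies on the plus strand of chromosome 9 from 45138395 to 45154152 (GRCm38), spans 15.8 kb and has 5 exons.

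Its neighbour Scn2b, whose protein like that of Scn4b is joined to the pore by a disulfide bond, lies 8.32 kb upstream on the same strand. Scn2b had 61.7 FPKM in Control and 53.9 in Rheb cKO (log2 fold change -0.19, q = 0.370 in the authors' deposited table). The ratio of Scn4b to Scn2b was 0.593 in Control and 0.356 in Rheb cKO. The difference between their folds was not tested, as the table holds no value per library.

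Scn3b, a beta subunit held to the pore without a covalent bond, lay on the other side of 0, at 22.0 FPKM in Control and 27.1 in Rheb cKO (0.30 on the log2 scale, p = 0.0134, q = 0.105 by Cuffdiff in the authors' deposited table). It was not called.

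Scn4b is strongly expressed by fast-spiking interneurons and by striatal medium spiny neurons, so the markers of these cells are given beside it. Among 15 markers of parvalbumin and other inhibitory neurons 2 fell, 2 rose and the median was 0.0033, with summed levels of 1732 and 1360 FPKM. Pvalb itself, a calcium buffer of fast-spiking cells, went from 111.0 to 57.7 FPKM (-0.94 on the log2 scale, q = 0.00161 in the authors' deposited table), and Sst, a peptide of another inhibitory class, fell by 0.38 on the log2 scale (q = 0.0213 in the authors' deposited table). The genes that rose were Lhx6, a transcription factor of the lineage of both classes, at 0.45 (q = 0.0348), and Nxph1, a neurexin ligand of inhibitory neurons, at 0.72 (q = 0.00161), in the authors' deposited table. The potassium channel genes of fast-spiking cells on the list, none of them called, stood at -0.40 for Kcnc1 (p = 0.0067, q = 0.0671 by Cuffdiff in the authors' deposited table), 0.11 for Kcnc2 and 0.21 for Kcns3. Of the general inhibitory markers Gad1 was at 64.4 and 64.6 FPKM, Gad2 had a log2 fold of 0.21 and Slc32a1 one of -0.26 (p = 0.0378, q = 0.199 by Cuffdiff in the authors' deposited table). Cox6a2 (-0.45, p = 0.0424, q = 0.213 by Cuffdiff in the authors' deposited table) and Syt2 (-0.44, q = 0.301) were not called either. Of the 15 markers 8 lay above 0 and 7 below. Of 13 striatal medium spiny neuron markers, cells that a cortical dissection can carry along, 4 fell and 0 rose, the median was -0.16, and the summed level was 1802 and 1334 FPKM. Penk supplied most of that drop (830.5 and 487.0 FPKM), whereas the dopamine receptor genes Drd1 and Drd2 had log2 folds of -0.02 and -0.01. Their part in the fold of Scn4b was not tested.

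The auxiliary subunits of calcium channels held no called gene among 15. The alpha2delta proteins, extracellular subunits of which the products of Cacna2d1 and Cacna2d2 bind gabapentin, had a median of -0.17 and 1 of 4 above 0. Cacna2d3, the most abundant of them here, went from 23.1 to 19.3 FPKM (-0.26 on the log2 scale, p = 0.0377, q = 0.199 by Cuffdiff in the authors' deposited table). Cacna2d1 stood at 12.6 and 11.9 FPKM (-0.08), Cacna2d2 at 4.26 and 4.27 (0.0017) and Cacna2d4, known from retina, at 0.734 and 0.466 (-0.65, q = 0.625 in the authors' deposited table). The summed level of alpha2delta relative to the calcium pores was 0.450 in Control and 0.310 in Rheb cKO.

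Cacna2d4 and Cacna1c are neighbours 40.1 kb apart on opposite strands, with folds of -0.65 and 0.50. Cacna2d3 and Cacna1d are 318 kb apart on the same strand, with folds of -0.26 and 0.25. In each of these neighbour pairs the auxiliary gene lay below 0 and the pore gene above it, and none of these genes was called. The same signs were found in their groups at large, with 3 of 4 alpha2delta genes below 0 and all 9 calcium pore genes above it.

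The cytoplasmic beta subunits, which bind high-voltage-activated pores and raise their surface level, had a median of 0.06 and ranged from -0.13 (Cacnb1) to 0.28 (Cacnb4), with q from 0.320 to 0.906 (Cuffdiff, 0 at an unadjusted p under 0.05). Cacnb3 led in level, at 182.2 FPKM in Control and 190.2 in Rheb cKO, followed by Cacnb1 at 93.2 and 85.0. Cacnb4 stood at 7.73 and 9.38 FPKM and Cacnb2 at 5.45 and 5.66. Their sum was 288.5 FPKM in Control and 290.3 in Rheb cKO.

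The gamma genes had folds from -0.25 (Cacng6) to 0.18 (Cacng7), with a median of 0.08 and 0 of 7 called by Cuffdiff or at an unadjusted p under 0.05. Cacng8, the abundant TARP of forebrain, had 61.3 and 65.2 FPKM, Cacng3 had 55.2 and 56.1, and Cacng7 had 47.1 and 53.2. Cacng2, or stargazin, the founding TARP, had 13.7 FPKM in Control and 15.3 in Rheb cKO (log2 fold change 0.16, q = 0.515 in the authors' deposited table). Cacng5, a TARP with weaker effects on AMPA receptors, stood at 2.76 and 2.91 FPKM, and Cacng6, a gamma subunit that is not a TARP, at 0.859 and 0.721. Cacng4, a TARP that oligodendrocyte precursors also express, was at 31.6 and 29.3 FPKM (-0.11, q = 0.703 in the authors' deposited table), beside precursor markers of which 4 of 12 fell and 0 rose, among them Olig1, with Pdgfra at 7.25 and 7.20 FPKM; their part in the value of Cacng4 was not tested. Cacng7, Cacng8 and Cacng6 lie in a row on chromosome 7, 22.5 and 8.55 kb apart, with log2 folds of 0.18, 0.09 and -0.25.

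Pore and auxiliary genes also differ in transcript length, and folds rose with length across the table. The longest annotated transcript had a median of 9.56 kb (6.25 to 14.9) among pore genes and 3.93 kb (1.90 to 8.23) among auxiliary genes. Over 11452 protein-coding genes whose FPKM averaged 1 or more, Spearman's rank correlation between length and fold was 0.185, across genes that share these libraries. The 1472 of them with a transcript of 6.25 kb or more had a median log2 fold change of 0.12, with 69.8% above 0 and 7.40% called higher, while the shorter ones had a median of 0.01. The 329 with a transcript at least as long as the pore median of 9.56 kb had a median of 0.16, with 75.4% above 0 and 8.21% called higher. Among the 11 pore genes that also averaged 1 FPKM or more the median was 0.28, with 90.9% above 0 and 9.09% called higher. Over all 13 pore genes the median was 0.38, and 1 of them (7.69%) was called higher. The coefficient between length and fold was 0.52 over the 31 members. Within the kinds of subunit, each of few genes over a narrower range of lengths, it was -0.15 over 13 pore genes and -0.03 over 18 auxiliary genes. The part of length in the pore folds was not tested.

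With the trend of folds on length and GC content removed, the pore median was 0.27, the auxiliary median -0.02 and 11 of 13 pore genes were above 0. In that setting Scn8a joined Scn1a below 0 (-0.05 and -0.22), and the called genes kept their directions at 0.32 for Scn2a1 and -0.94 for Scn4b. Length and kind of subunit overlap little among the members, since Cacna2d1 and Cacnb4 were the only auxiliary genes with a transcript as long as the shortest of the pore genes, at 7.44 and 8.23 kb and with folds of -0.08 and 0.28.

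**Figure D3:**
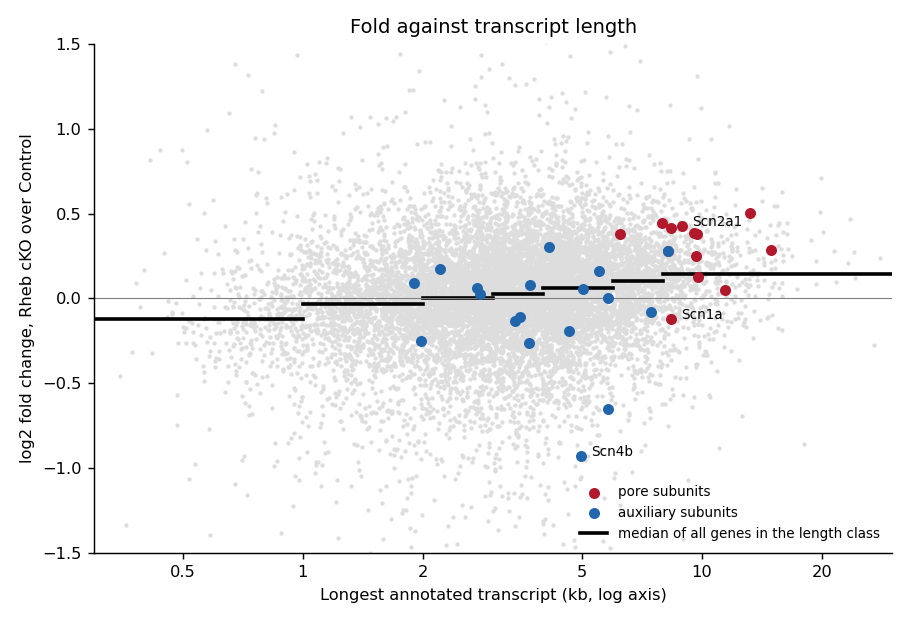
Log2 fold change (y axis, shown from -1.5 to 1.5) against the longest annotated transcript in kb on a log axis (x axis), grey points for protein-coding genes whose FPKM averaged 1 or more, red for pore and blue for auxiliary subunits, black bars for the median of each length class. The class medians climb from -0.12 under 1 kb to 0.14 at 8 kb and above, and most pore genes lie above the bar of their class.

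Genes whose proteins work with these channels were examined as 3 lists. Of 28 measured anchors and modulators of sodium channels 4 rose, 2 fell and the median was 0.11. Sptbn1, a spectrin of the membrane skeleton, went from 22.4 to 31.8 FPKM (0.50 on the log2 scale, q = 0.00699 in the authors' deposited table), and Nedd4 (0.42, q = 0.00956), a ubiquitin ligase related to the one that removes sodium channels, Mapk8ip2 (0.47, q = 0.00161), a scaffold that binds sodium channel modulators, and Unc79 (0.56, q = 0.0388), a subunit of the sodium leak channel complex, rose as well. The genes that fell were Nfasc, an adhesion molecule of the initial segment, node and paranode, from 37.5 to 28.7 FPKM (-0.38, q = 0.0200), and Cntnap1, a paranodal axonal protein, from 22.6 to 17.0 FPKM (-0.41, q = 0.0317), in the authors' deposited table. Other genes of these sites on the list lay on both sides of 0 and were not called. Cntn1, the paranodal partner of Cntnap1, was at 0.25 (p = 0.0356, q = 0.191), and Sptbn4, the spectrin of nodes and initial segments, at 0.25 (p = 0.0439, q = 0.217), by Cuffdiff in the authors' deposited table. Nrcam was at -0.03 (q = 0.953) and Fgf14 at -0.05 (q = 0.931) in the authors' deposited table. Nfasc is also made by oligodendrocytes, whose 17 markers had a median of -1.68; the part of those cells in its value was not tested. Ank3, the anchor of sodium channels at the initial segment, went from 14.3 to 18.3 FPKM and was not called (0.36, q = 0.238 in the authors' deposited table).

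Calcium channel partners, the active zone scaffolds and regulators that tie calcium entry to release, had 2 of 30 higher, 0 lower by Cuffdiff (at an unadjusted p under 0.05, 6 above and 3 below 0) and a median of 0.14. Rims2, which tethers calcium channels to vesicles at the active zone, went from 4.11 to 6.42 FPKM (0.64 on the log2 scale, q = 0.00161 in the authors' deposited table), while its relative Rims1 stood at 13.5 and 13.3 FPKM. Akap7, an anchor of protein kinase A at calcium channels, also rose (0.43, q = 0.0474 in the authors' deposited table). Of the RGK GTPases, inhibitors of calcium channels, Gem (-0.66) and Rrad (-0.64) had an unadjusted p under 0.05 and were not called (q = 0.199 and 0.189 in the authors' deposited table), at levels of 2.68 FPKM or less.

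AMPA receptors and the proteins that share them with the TARPs had 1 of 26 higher, 0 lower by Cuffdiff (at an unadjusted p under 0.05, 3 above and 1 below 0) and a median of 0.09. Shisa7, a small membrane protein of inhibitory and excitatory receptors, was the one that rose, from 12.8 to 17.6 FPKM (0.46, q = 0.00699 in the authors' deposited table). The receptor subunit Gria1 went from 62.7 to 70.9 FPKM without passing the test (0.18, q = 0.418 in the authors' deposited table). Over the 3 lists together 9 of 84 measured genes were called, 10.7%, beside 8.72% of all genes. By list the share called was 21.4% for the sodium channel anchors and modulators, 6.67% for the calcium channel partners and 3.85% for the AMPA receptor list. The partner medians of 0.09 to 0.14 were close to the 0.16 of the pan-neuronal and 0.17 of the excitatory markers, and all lay below the 0.38 of the pore subunits. Among the pore subunits averaging 1 FPKM or more the median was 0.28.

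**Figure D4:**
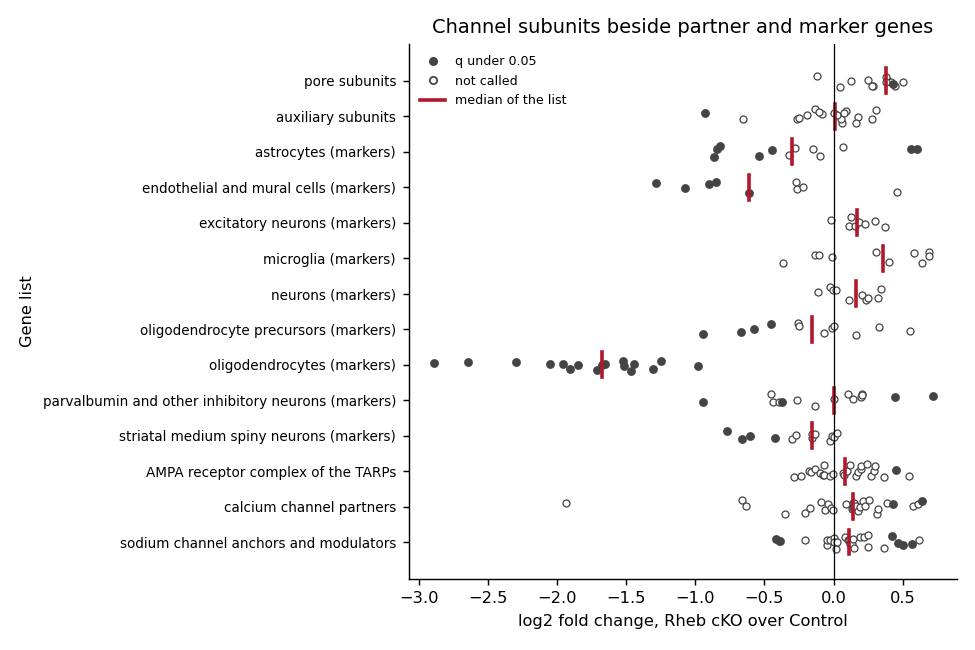
Log2 fold change (x axis) of each gene in the pore and auxiliary sets, the partner lists and the marker lists (y axis), filled for a q under 0.05, with a red bar at the median of each list and a random vertical offset. Pore subunits centre at 0.38 and oligodendrocyte markers at -1.68, and the partner lists centre between 0.09 and 0.14.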

How the data were processed

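Mouse cortex at postnatal day 25 was lysed, tagged ribosomes were precipitated with an anti-HA antibody on beads, and a stranded mRNA kit gave the libraries, per the labels' protocols. Cuffdiff 2.2.1, TopHat2 2.1.0 and the build mm10 appear in the submitters' processing notes, without settings; annotation release, strand setting and scaling: not given in the sources used here. The deposited FPKM columns hold 1 value per gene and group, per the file headers, so the authors pooled 3 libraries into each. The log2 fold change deposited beside them sets Rheb cKO over Control without a pseudocount, and the test score per gene is the authors' signed Cuffdiff statistic. The deposited p-value and q-value are those of Cuffdiff, adjusted by the authors over 13192 genes; recomputed Benjamini-Hochberg values differed by at most 7.3e-05. Their p-values come in steps of 5e-05, so all genes at the smallest share a q of 0.00161. A gene was called at a q under 0.05.

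Depth per library is unknown, and counting intervals cannot be given. The q-values are the only measure of error, and they rest on a spread that Cuffdiff estimated with settings not given. Any part of that spread that lies between libraries may be technical if these are not separate animals. The FPKM columns sum to 597927 (Control) and 597646 (Rheb cKO), and the median log2 fold change was 0.03 over genes whose FPKM averaged 1 or more. Folds without a q in the text are log2 ratios of the pooled values in the same table. Genes listed at 0 in a group (12 in Control, 5 in Rheb cKO, none of them a channel gene) lack a finite fold and enter no median.

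The members, partner lists and marker lists were chosen with earlier results of these data known. Some genes that match the rule for members are not reported here and enter no count, sum, median or figure of the channel genes. Named by a rule were members called or with an unadjusted p under 0.05, the 2 most abundant of each role and the called partners; others named were chosen after their values were seen. Coordinates, strand, exons, transcript length and GC come from GENCODE M21 by gene ID (all 31 matched, 99.7% of all genes), since the table's own loci can span several genes. Promoter windows come from RefSeq (GRCm38.p6), by symbol, and cover 250 bases before a start. For the length and GC setting, folds were regressed by least squares on log2 length and GC percent over 11452 protein-coding genes, and residuals were centred on their median fold; the adjustment and this regression were tested on simulated data. The work used matplotlib 3.10.9, scipy 1.17.1, numpy 2.4.6, pandas 2.3.3 and Python 3.11.15.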

Additional observations from a re-analysis of the deposited data

How the results depend on the processing

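No paired analysis was possible because the deposited values are pooled over the libraries of a group and carry no replicate number; for the same reason no library could be left out. At a q under 0.01 Cuffdiff called 0 channel genes higher and 1 lower (Scn4b), so 0 pore genes and 1 auxiliary gene, and 5 partner genes (6 channel genes have an unadjusted p under 0.05); Scn2a1 was no longer called. At a q under 0.1 the channel calls were the same in number and 14 partner genes were called. Adjusting p-values over genes whose FPKM averaged 1 or more left all 5 counts of calls within 1.5 times. With 1 added to each FPKM the pore median was 0.25 and the gap between pore and auxiliary medians 0.24; among members averaging 1 FPKM or more the gap was 0.24. With the length and GC trend removed (a setting chosen after seeing the data) the pore median was 0.27. In these settings, and with 0.1 added, a minimum of 5 FPKM or centring on all genes, the other medians moved by less than 0.1. Centring put Cacna2d2 and Cacng3 below 0, and removing the trend did so for Scn8a, Cacna2d2 and Cacnb2; none of these is called. The unknown depth limits most the 4 members under 1 FPKM on average: Scn3a, Cacna1s, Cacna2d4 and Cacng6.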
